A study of Mus musculus with 17 samples.

Results

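Small leucine-rich proteoglycans (SLRPs) are secreted matrix proteins built around a core of leucine-rich repeats. The 10 genes described here are Dcn (decorin), Bgn (biglycan), Aspn (asporin), Lum (lumican), Fmod (fibromodulin), Prelp, Omd (osteomodulin), Kera (keratocan), Ogn (osteoglycin) and Podn (podocan). They were taken as a list of symbols and not by a cutoff on their values, though earlier results of these data were known. They stand among 55335 genes with a row in the count files. All 10 passed the filter on low counts in every comparison.

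The RNA came from 2 stromal populations sorted from the bone fraction of long bones of female littermate mice aged 8 to 12 weeks. Skeletal stromal/stem cells (SSCs) were gated as CD51+ PDGFRα+ Sca-1+ cells that lacked CD45, TER119 and CD31, and osteoprogenitor cells (OPCs) as the Sca-1- cells that carry CD51. The mice were WT (Cxcr4+/+), +/1013 (Cxcr4+/1013) or 1013/1013 (Cxcr41013/1013). The 1013 allele is a germline knock-in that truncates the cytoplasmic tail of the chemokine receptor CXCR4 and models WHIM syndrome, so every cell type of a mutant mouse carries it. Cells of 3 mice were pooled for each library, 3000 in all. Every combination of population and genotype had 3 libraries, except 1013/1013 SSCs with 2. The study asked how this gain of receptor function affects the transcriptome of SSCs, and it sequenced OPCs as well.

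SLRPs bind collagen fibrils as these assemble, and thereby set fibril diameter and spacing. Decorin, biglycan and asporin form class I, in which decorin and biglycan carry chondroitin or dermatan sulfate chains and asporin carries none. Lumican, fibromodulin, PRELP, osteomodulin and keratocan form class II, several of which carry keratan sulfate or sulfated tyrosines, and osteoglycin and podocan belong to smaller classes. In bone and cartilage these proteins are also known to hold growth factors of the TGF-β family in the matrix, and mice that lack biglycan have low bone mass.

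Most of the genes sit in clusters on the mm10 assembly, and all positions given here are spans of the annotated gene from first to last exon. Aspn (chr13:49544443-49567565), Omd (chr13:49582462-49592822) and Ogn (chr13:49608046-49624501) follow each other on the plus strand of chromosome 13. Dcn (chr10:97479609-97518143), Lum (chr10:97565128-97572703) and Kera (chr10:97606879-97613692) do so on chromosome 10. Fmod (chr1:134037254-134048277, plus strand) and Prelp (chr1:133910304-133921414, minus strand) lie near each other on chromosome 1. Bgn (chrX:73483602-73495933, plus strand) and Podn (chr4:108014791-108096445, minus strand) stand apart from the others. Exons of Aspn overlap those of Cenpp, and exons of Prelp those of Gm15851, each on the opposite strand. The library kit does not mark strand and the strand setting of the counting is not given in the sources used here, so reads in these overlaps cannot be assigned to one partner with certainty.

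The 250 bases upstream of the RefSeq start are shown for the 3 neighbours on chromosome 13. Among these, Aspn and Ogn had higher mean values in SSCs than in OPCs in every genotype. Omd had lower ones, which did not pass the test of edgeR as set up here, and the 3 genes were not tested against each other. The same stretch is shown for Bgn, the member that passed the test as lower in SSCs than in OPCs in every genotype. The sequences are from RefSeq on GRCm38.p6, read on the plus strand at chr13:49544193-49544442 (Aspn), chr13:49582212-49582461 (Omd), chr13:49607765-49608014 (Ogn) and chrX:73483351-73483600 (Bgn). Capitals mark matches, on either strand, to any of 4 motifs searched, the TATA box TATAAA, the RUNX motif TGTGGT, the AP-1 motif TGANTCA and the GC box GGGCGG.
Aspn: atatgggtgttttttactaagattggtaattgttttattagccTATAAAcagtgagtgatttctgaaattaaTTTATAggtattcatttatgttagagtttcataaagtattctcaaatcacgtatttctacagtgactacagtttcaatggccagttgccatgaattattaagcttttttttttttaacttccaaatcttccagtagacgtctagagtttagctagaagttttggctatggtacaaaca
Omd: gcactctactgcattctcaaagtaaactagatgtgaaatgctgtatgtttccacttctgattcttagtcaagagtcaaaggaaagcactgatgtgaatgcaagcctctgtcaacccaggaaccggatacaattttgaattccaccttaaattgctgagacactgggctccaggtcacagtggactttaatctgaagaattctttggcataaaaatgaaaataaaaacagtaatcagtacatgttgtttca
Ogn: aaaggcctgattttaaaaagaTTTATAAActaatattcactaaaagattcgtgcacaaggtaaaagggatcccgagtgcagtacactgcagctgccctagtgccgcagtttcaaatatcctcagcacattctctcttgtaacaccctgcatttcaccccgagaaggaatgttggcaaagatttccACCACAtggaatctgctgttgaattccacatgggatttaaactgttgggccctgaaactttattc
Bgn: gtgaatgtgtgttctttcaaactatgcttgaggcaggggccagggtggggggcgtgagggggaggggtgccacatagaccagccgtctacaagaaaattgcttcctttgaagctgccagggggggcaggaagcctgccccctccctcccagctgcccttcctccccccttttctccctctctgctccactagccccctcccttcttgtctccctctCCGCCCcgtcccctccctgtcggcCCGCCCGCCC

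Aspn held 2 matches to the TATA box letters, at −207 and −178 from the start. Ogn held 2 overlapping ones, at −229 and −227, and 1 RUNX match at −65, while Omd held no match to any of the 4. For Ogn alone among the promoters matched, the bases just after the RefSeq start were not found in an annotated transcript of the gene. Its window ends at 49608014 and the annotated gene starts at 49608046, so its distances hold for the RefSeq start only. Bgn held 3 GC boxes, at −34, −10 and −6, of which the last 2 overlap. Of 32851 RefSeq promoters searched over the same length, 12.4% held the TATA box, 14% the RUNX motif, 6.75% the AP-1 motif and 32.7% the GC box. A letter match is a description of the sequence and not a binding site. RefSeq promoters were matched for 8 of the 10 genes, and of those not printed Prelp, Fmod and Kera held no match, whereas Podn held 2 GC boxes in one of its 2 entries.

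Between 64099849 and 92683497 counts fell on genes in an OPC library and between 44217695 and 50509592 in an SSC library. Levels are given below as normalized CPM, the count scaled by the library total and by its TMM factor over all 17 libraries. Levels of different genes are compared only per kilobase of exon. Ly6a, which encodes the Sca-1 antigen of the SSC gate, was at 386 to 1450 normalized CPM in SSCs and 0.569 to 12.4 in OPCs. Cxcr4 itself was at 4.48 to 19.4 normalized CPM in OPCs. In SSCs it was at 0.719 to 47.3 in WT (median 1.30), 0.175 to 0.307 in +/1013 and 0.110 to 0.838 in 1013/1013 libraries. A count per gene does not check a truncating allele. The 8 osteoblast lineage markers (Runx2 to Dmp1) summed to 101962 to 322151 normalized CPM in OPCs and 3935 to 13580 in SSCs.

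Markers of other cells differed between libraries, and they are set beside the results they touch. The 10 leukocyte and erythroid markers summed to 8950 normalized CPM in WT OPC library 3, 9230 in 1013/1013 OPC library 2 and 2831 in WT SSC library 3, against 44.9 to 1074 elsewhere. Itgam was at 0 in 6 of the other libraries and Ptprc in +/1013 SSC library 3. The 7 chondrocyte markers summed to 15902 to 102684 in OPCs and 3349 to 21213 in SSCs, and none was at 0 in any library. The 6 fibroblast markers summed to 57.2 to 526 in OPCs, 948 to 1437 in WT SSCs and 1752 to 4157 in mutant SSCs, and Dpp4 was at 0 in 4 OPC libraries. Within each genotype, OPC library 1 had the most fibroblast marker counts (409, 526 and 212 normalized CPM). The 5 tendon markers summed to 413 to 2809 in OPCs and 2384 to 5257 in SSCs, with none at 0. The 6 endothelial markers summed to 2.62 to 37.1 in OPCs and 21.3 to 119 in SSCs, and the 5 muscle markers to 31.6 to 396 and 3.58 to 125. Pecam1, Cdh5, Kdr and Emcn among the former, and Myh1 and Ckm among the latter, were at 0 in some libraries. The WT SSC libraries differed from the mutant SSC libraries in 2 further respects, with 21449 to 22599 against 15748 to 19227 genes with a count, and 3.68% to 4.15% against 1.5% to 2.69% of reads on no gene.

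Decorin was the leading SLRP transcript of SSCs. Per kilobase of exon, Dcn averaged 3533 ± 872 normalized CPM (SD, n = 3) in WT SSCs, 6808 ± 1279 (n = 3) in +/1013 SSCs and 7422 ± 401 (n = 2) in 1013/1013 SSCs, and ranked 2 among all genes in each of these groups. Its libraries did not overlap those of the next member, Fmod in WT and Lum in both mutant genotypes. In WT OPCs, Lum (1324 ± 666), Dcn (1288 ± 461) and Fmod (1261 ± 453) shared the top of the order, with overlapping libraries. Fmod led in mutant OPCs, at 1635 ± 264 in +/1013 and 1790 ± 428 in 1013/1013 libraries, again overlapping the next member.

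Below these stood Bgn and Prelp in WT OPCs, at 620.3 ± 135 and 454 ± 252 normalized CPM per kilobase. In 1013/1013 OPCs Prelp was second, at 1179 ± 747, above Dcn (821 ± 127) and Lum (816 ± 182) with overlapping libraries. In SSCs of WT mice Bgn, Aspn and Ogn formed an overlapping group at 217 ± 36.0, 204 ± 38.5 and 192 ± 80.2. Omd and Kera were lower than these in WT SSCs, at 56.3 ± 26.9 and 50.2 ± 3.13. Podn was the lowest member in all 6 groups, from 0.585 ± 0.0690 in 1013/1013 OPCs to 30.7 ± 10.9 in +/1013 SSCs, and overlapped the member above it only in 1013/1013 SSCs.

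**Figure D1:**
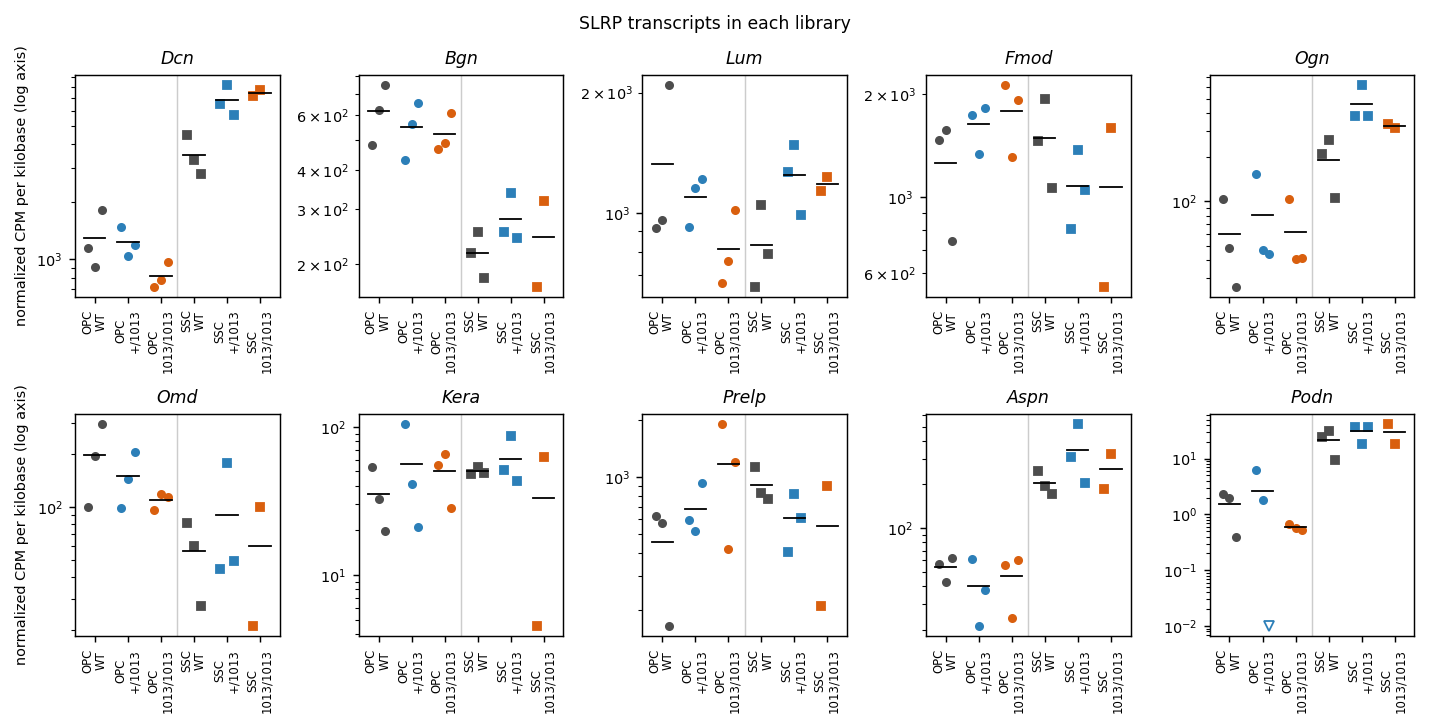
Level of each of the 10 genes in every library (normalized CPM per kilobase of exon, log axis), by population and genotype. Each point is 1 library, the black bar is the group mean, and the open triangle at the bottom of the Podn panel is the library with 0 counts. Dcn, Aspn and Podn points of SSCs lie above those of OPCs in every genotype and Bgn points below.

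The 10 genes together took 1.36% to 2.28% of the gene counts in OPC libraries and 3.77% to 6.93% in SSC libraries. Type I collagen transcripts (Col1a1 and Col1a2) took 16.1% to 38.7% of OPC counts and 0.563% to 2.78% of SSC counts. With both collagen genes left out of the total, the 10 genes took 2.05% to 3.06% in OPCs and 3.86% to 6.97% in SSCs, so the populations still did not overlap.

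**Figure D2:**
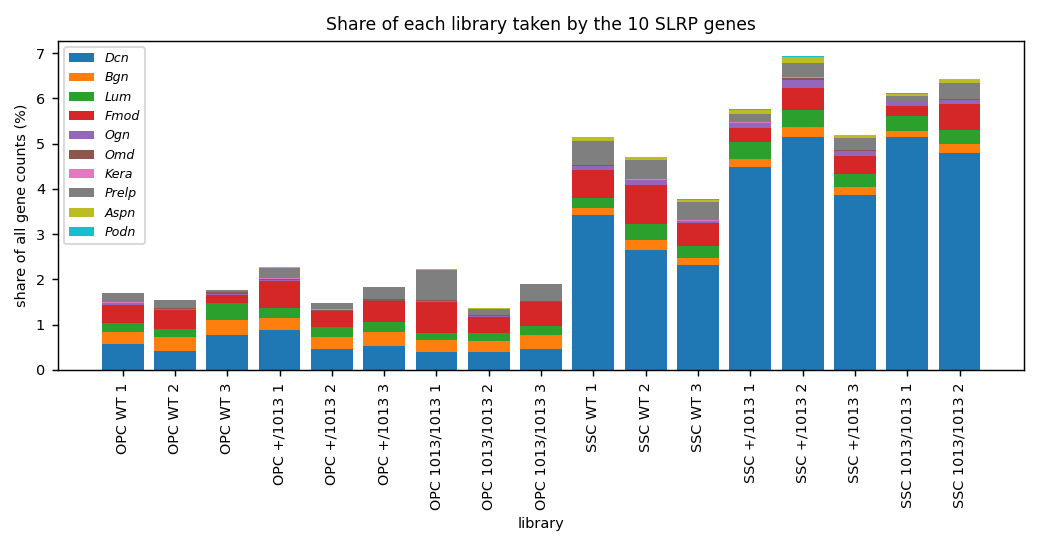
Share of all gene counts (percent, from 0) taken by each of the 10 genes in the 17 libraries, stacked. The stacks reach 1.36% to 2.28% in OPCs and 3.77% to 6.93% in SSCs, and the Dcn segment is the tallest of each SSC stack.

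Comparing SSCs with OPCs of the same genotype, Dcn and Aspn were higher in SSCs in all 3 genotypes and Bgn was lower in all 3. Ogn passed the test as higher in SSCs in both mutant genotypes, and Podn in 1013/1013 mice. In WT, both also had higher values in every SSC library than in every OPC library (3.23-fold and 13.9-fold), without passing. Whether the genotype difference differed between the populations was tested separately below, and neither gene was called there. Lum, Fmod, Prelp, Omd and Kera did not pass the test in any genotype. A gene was called at an adjusted p under 0.05 by the quasi-likelihood test of edgeR, adjusted by Benjamini and Hochberg's method over 20238 genes, and a change of at least 1.5-fold. In WT, 3 of the 10 genes were called and 11.4% of all genes tested were; in +/1013 mice 4 of 10 and 12.5%; and in 1013/1013 mice 5 of 10 and 13.1%. With DESeq2's Wald test, 6, 5 and 5 members were called beside 21.2%, 23.2% and 28.5% of genes, the additional ones being Ogn, Omd and Podn in WT and Podn in +/1013 mice. The libraries of the 2 populations did not overlap for 7, 5 and 6 members in WT, +/1013 and 1013/1013 mice, against 37.9%, 35.1% and 40.2% of all genes. Without a normalization factor the median of all genes moved from 0.17 to 0.94 in WT, from 0.00 to 0.36 in +/1013 and from −0.20 to 0.05 in 1013/1013 mice. With that scaling Bgn lost its call in both mutant genotypes, Ogn (log2 2.41, adjusted p = 0.0252) and Podn (4.51, adjusted p = 0.0367) were called in WT, and the uncalled values turned for Lum in WT (0.14) and Prelp in +/1013 mice (0.26). In bulk RNA, fewer cells that express a gene and less RNA per cell cannot be told apart.

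**Figure D3:**
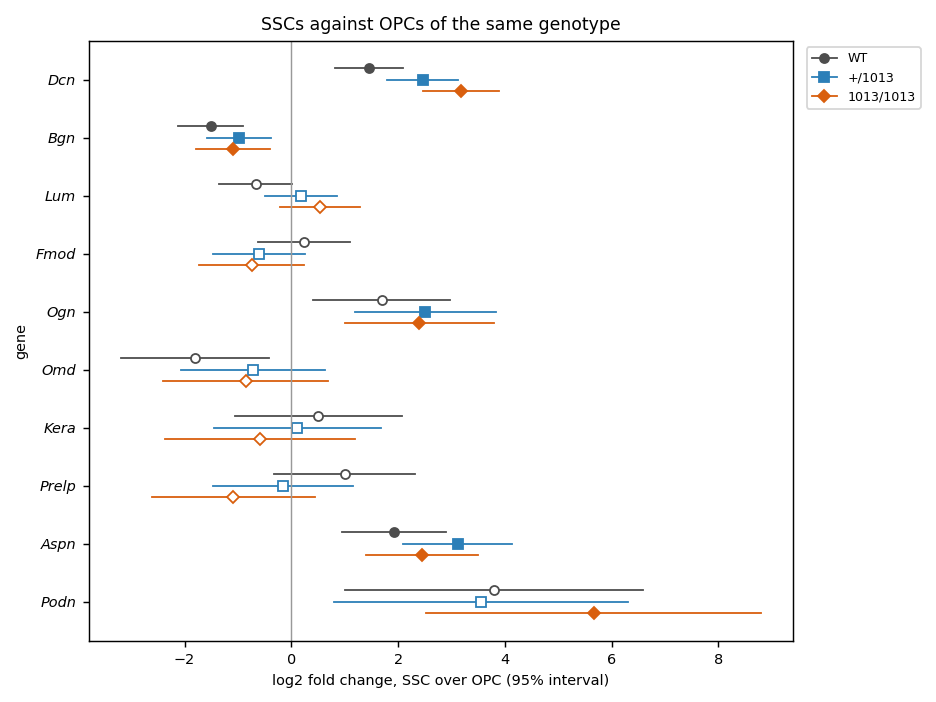
Difference between SSCs and OPCs (log2 fold change, SSC over OPC) of each gene in the 3 genotypes, with 95% intervals from the edgeR fit. Filled symbols passed the test and open ones did not. Dcn and Aspn lie to the right of 0 and Bgn to the left in all 3 genotypes, all filled.

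Decorin is the class I member best known for binding collagen fibrils and TGF-β. In OPCs, Dcn was at 6724, 5309 and 10519 normalized CPM in the WT libraries, 8622, 6102 and 6967 in +/1013, and 4198, 4558 and 5624 in 1013/1013. In SSCs it was at 26239, 19326 and 16313 in WT, 38106, 47894 and 33233 in +/1013, and 41678 and 44986 in 1013/1013 libraries. Every SSC library exceeded every OPC library, and every mutant SSC library exceeded every WT SSC library. The difference between SSCs and OPCs was 2.74-fold in WT (log2 1.46 ± 0.30 SE, adjusted p = 0.00645). It was 5.50-fold in +/1013 mice (log2 2.46 ± 0.31, adjusted p = 0.00017) and 9.04-fold in 1013/1013 mice (log2 3.18 ± 0.33, adjusted p = 4.09e-05). With the 2 groups compared alone in the fit, the values were 1.47 (adjusted p = 0.0653) in WT and 3.18 (adjusted p = 0.0709) in 1013/1013 mice.

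Asporin is a class I member with a stretch of aspartate residues in place of a glycosaminoglycan chain. Aspn was at 134, 99.9 and 147 normalized CPM in WT OPCs, 144, 49.8 and 87.6 in +/1013 OPCs, and 130.5, 56.4 and 142 in 1013/1013 OPCs. It was at 579.9, 460.1 and 402 in WT SSCs, 724, 1229 and 483 in +/1013 SSCs, and 438 and 761 in 1013/1013 SSCs. The lowest SSC library stood above the highest OPC library. The difference was 3.79-fold in WT (log2 1.92 ± 0.45, adjusted p = 0.0141), 8.67-fold in +/1013 (log2 3.12 ± 0.47, adjusted p = 0.000723) and 5.47-fold in 1013/1013 mice (log2 2.45 ± 0.49, adjusted p = 0.00529). Without WT OPC library 2, the WT difference was 1.79 (log2) with an adjusted p of 0.0656, and with the 2 groups alone the 1013/1013 difference had one of 0.0716. Cenpp, whose exons overlap Aspn on the other strand, could share reads with it.

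Biglycan, the other chain-bearing class I member, showed the opposite order. Bgn was at 2945, 3816 and 4587 normalized CPM in WT OPCs, 2628, 3432 and 3992 in +/1013 OPCs, and 2847, 2978 and 3733 in 1013/1013 OPCs. It was at 1324, 1545 and 1105 in WT SSCs, 1543, 2070 and 1484 in +/1013 SSCs, and 1034 and 1948 in 1013/1013 SSCs. All SSC libraries lay below all OPC libraries. Bgn was 2.86-fold lower in WT SSCs than in WT OPCs (log2 −1.51 ± 0.28, adjusted p = 0.00373), 1.97-fold lower in +/1013 (log2 −0.98 ± 0.28, adjusted p = 0.0338) and 2.14-fold lower in 1013/1013 mice (log2 −1.10 ± 0.32, adjusted p = 0.0378). Both mutant calls were lost when single libraries were left out, with adjusted p of up to 0.126 without +/1013 OPC library 3 and 0.325 without 1013/1013 SSC library 1, where the difference was −0.71. They were also lost without a normalization factor (−0.54, adjusted p = 0.113, and −0.73, adjusted p = 0.0622) and with only the 2 groups in the fit (adjusted p = 0.0569 and 0.238), and the 1013/1013 call with upper-quartile scaling (adjusted p = 0.056). Without the 3 libraries rich in leukocyte markers, the difference was −1.24 (adjusted p = 0.0724) in WT and −1.14 (adjusted p = 0.0596) in 1013/1013 mice.

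Lumican, a keratan sulfate proteoglycan of class II, did not pass the test between the populations. Lum was at 2241, 2360 and 5123 normalized CPM in WT OPCs, 2254, 2824 and 2970 in +/1013 OPCs, and 1638, 1857 and 2496 in 1013/1013 OPCs. It was at 1604, 2563 and 1937 in WT SSCs, 3099, 3613 and 2420 in +/1013 SSCs, and 2784 and 3014 in 1013/1013 SSCs. WT OPC library 3, one of the libraries rich in leukocyte markers, had the highest level of all 17. The difference was −0.67 in WT (log2, 95% interval −1.36 to 0.01), 0.18 in +/1013 (−0.50 to 0.86) and 0.54 in 1013/1013 mice (−0.22 to 1.29). The libraries of the 2 populations overlapped in WT and +/1013 mice and not in 1013/1013 mice.

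Fibromodulin and PRELP, neighbours on chromosome 1 and both collagen-binding, were alike in how they varied between libraries. Fmod was at 4847, 5209 and 2454 normalized CPM in WT OPCs, 5764, 4411 and 6040 in +/1013 OPCs, and 7049, 4334 and 6376 in 1013/1013 OPCs. It was at 4818, 6384 and 3525 in WT SSCs, 2663, 4527 and 3478 in +/1013 SSCs, and 1808 and 5256 in 1013/1013 SSCs. The 2 populations overlapped in every genotype, and the difference was 0.24 (−0.62 to 1.09) in WT, −0.60 (−1.47 to 0.26) in +/1013 and −0.74 (−1.73 to 0.24) in 1013/1013 mice. The last value rested on single libraries, since it was −1.67 (adjusted p = 0.0442) with 1013/1013 SSC library 1 alone and −0.17 without that library.

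Prelp was at 2254, 2076 and 593 normalized CPM in WT OPCs, 2154, 1879 and 3380 in +/1013 OPCs, and 6908, 1507 and 4376 in 1013/1013 OPCs. It was at 4077, 2976 and 2766 in WT SSCs, 1465, 2951 and 2214 in +/1013 SSCs, and 756 and 3257 in 1013/1013 SSCs. The WT libraries of the 2 populations did not overlap and those of the mutants did. The difference was 1.00 (−0.33 to 2.32) in WT, −0.16 (−1.47 to 1.15) in +/1013 and −1.09 (−2.61 to 0.43) in 1013/1013 mice. Centred on the mean of each population, Fmod and Prelp had a Pearson correlation of 0.90 over the 17 libraries, a description without a test.

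Osteomodulin is a class II member known from mineralized matrix. Omd was at 224, 439 and 665 normalized CPM in WT OPCs, 224, 323 and 459.8 in +/1013 OPCs, and 216, 266 and 255 in 1013/1013 OPCs. It was at 182, 136 and 62.2 in WT SSCs, 100.3, 398 and 112 in +/1013 SSCs, and 47.6 and 224 in 1013/1013 SSCs. The WT populations did not overlap, and the mutant ones overlapped through +/1013 SSC library 2 and 1013/1013 SSC library 2. The difference in WT was −1.81 ± 0.65 (adjusted p = 0.0897), which did not pass in edgeR and passed with DESeq2 (log2 −1.85, adjusted p = 0.024) or in edgeR with at least 10 counts in every library (adjusted p = 0.0431). It was −0.72 (−2.08 to 0.63) in +/1013 and −0.85 (−2.40 to 0.69) in 1013/1013 mice.

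Keratocan, best known from the cornea, was among the least abundant members. Kera was at 123, 73.8 and 45.3 normalized CPM in WT OPCs, 238, 94.3 and 48.3 in +/1013 OPCs, and 127, 150.3 and 64.8 in 1013/1013 OPCs. It was at 109, 123 and 112 in WT SSCs, 116, 198 and 97.7 in +/1013 SSCs, and 10.4 and 142 in 1013/1013 SSCs. One library, 1013/1013 SSC 1, thus stood far below the rest. The difference was 0.51 (−1.06 to 2.08), 0.11 (−1.45 to 1.68) and −0.58 (−2.36 to 1.20) in WT, +/1013 and 1013/1013 mice. With 1013/1013 SSC library 1 as the only SSC library of its genotype, the last value was −3.41 (adjusted p = 0.02), and without it 0.32.

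Osteoglycin, also called mimecan, is a class III member first studied as a bone-forming factor. Ogn was at 267, 124 and 67.3 normalized CPM in WT OPCs, 392, 119 and 113 in +/1013 OPCs, and 266, 104 and 106 in 1013/1013 OPCs. It was at 539, 673 and 269 in WT SSCs, 974, 1599 and 985 in +/1013 SSCs, and 864 and 807 in 1013/1013 SSCs. SSC libraries lay above OPC libraries of the same genotype, narrowly so in WT (269 against 267). The difference was 3.23-fold in WT (log2 1.69 ± 0.60, adjusted p = 0.0858, not called), 5.70-fold in +/1013 (log2 2.51 ± 0.62, adjusted p = 0.0165) and 5.27-fold in 1013/1013 mice (log2 2.40 ± 0.65, adjusted p = 0.028). In each genotype the OPC library with the most Ogn was the one with the most fibroblast marker counts. It was also the one with the most tendon marker counts (2069, 2809 and 1520 normalized CPM in WT, +/1013 and 1013/1013). Without those 3 OPC libraries, the WT difference was 2.36 (adjusted p = 0.005), and without WT OPC library 1 alone it was 2.37 (adjusted p = 0.0333). The 1013/1013 call was lost with only the groups compared in the fit (adjusted p = 0.072) and without the libraries rich in leukocyte markers (adjusted p = 0.0577). Leaving out 1 library raised the adjusted p to at most 0.0738 in +/1013 mice (without OPC library 3) and 0.113 in 1013/1013 mice (without SSC library 1).

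Podocan was the scarcest member. Podn was at 9.83, 8.32 and 1.70 normalized CPM in WT OPCs, 26.1, 7.59 and 0 in +/1013 OPCs, and 2.83, 2.40 and 2.26 in 1013/1013 OPCs. The count of 0 in +/1013 OPC library 3 allows up to 0.0425 normalized CPM (3 counts), which covers counting error only. In SSCs it was at 104, 132 and 40.2 in WT, 156, 77.7 and 159.9 in +/1013, and 178 and 76.3 in 1013/1013. All SSC libraries stood above all OPC libraries. The difference was 13.9-fold in WT (log2 3.80 ± 1.30, adjusted p = 0.0766), 11.7-fold in +/1013 (log2 3.55 ± 1.28, adjusted p = 0.0886) and 50.8-fold in 1013/1013 mice (log2 5.67 ± 1.46, adjusted p = 0.0216), and edgeR as set up here called the last. With legacy = FALSE, edgeR also called the differences in WT (adjusted p = 0.0265) and +/1013 mice (adjusted p = 0.0313). The +/1013 value moved with single OPC libraries, to 5.11 (log2, adjusted p = 0.048) without library 1, 3.33 (adjusted p = 0.219) without library 2 and 2.96 (adjusted p = 0.0418) without library 3, the one at 0. DESeq2 called all 3, with adjusted p of 0.0116 in WT and 0.0194 in +/1013 mice. In edgeR, the 1013/1013 call was lost without the 3 libraries rich in leukocyte markers (adjusted p = 0.0628). Without the 3 OPC libraries rich in fibroblast markers it was lost too (adjusted p = 0.06). The 1013/1013 call was lost on leaving out any of the 3 OPC libraries or SSC library 1 of that genotype (log2 4.93, adjusted p = 0.0933 without the latter).

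Between genotypes, no SLRP gene passed the test in OPCs. In the fit of the 9 OPC libraries, 0 of 10 members were called by edgeR between 1013/1013 and WT, +/1013 and WT, or 1013/1013 and +/1013, and 0 had an unadjusted p under 0.05 in any of the 3. Of the 16207 genes tested, 0.00617%, 0% and 0% were called. DESeq2 also called 0 members, beside 0.383%, 0.328% and 0.427% of genes. The comparisons of both mutants with WT share the WT libraries.

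The widest OPC difference among abundant members was that of Prelp, 1.38 ± 0.64 (log2, 95% interval −0.08 to 2.83, adjusted p = 1.00) between 1013/1013 and WT. For the same pair Dcn differed by −0.65 (−1.39 to 0.09), Lum by −0.70 (−1.55 to 0.14), Omd by −0.86 (−1.79 to 0.07) and Fmod by 0.50 (−0.30 to 1.30). Bgn, with the narrowest interval, differed by −0.25 (−0.89 to 0.38), and Ogn, Kera, Aspn and Podn by 0.05, 0.49, −0.21 and −1.41. None of the 10 separated 1013/1013 from WT OPC libraries, and 7.61% of all genes did. Dcn was the 1 member of 10 whose 1013/1013 and +/1013 OPC libraries did not overlap (log2 −0.59 ± 0.32, adjusted p = 0.999), beside 7.34% of all genes. Between +/1013 and WT OPCs the 10 values ran from −0.44 for Aspn to 0.76 for Podn.

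Chondrocyte marker counts moved with 2 of these genes. Prelp and Fmod were lowest in WT OPC library 3, where the 7 chondrocyte markers summed to 18364 normalized CPM, and highest in 1013/1013 OPC library 1, where they summed to 102684. The next highest Prelp value among OPCs, 4376, was in 1013/1013 OPC library 3, with a sum of 86466. +/1013 OPC library 1 had the lowest sum, 15902, and did not have low Prelp (2154) or Fmod (5764). The part of these markers in the Prelp and Fmod values was not tested.

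In SSCs, the Dcn libraries of both mutant genotypes lay above those of WT, and the difference did not pass edgeR's test. Dcn was 2.12-fold higher in the mean of 1013/1013 than of WT SSCs by the fit (log2 1.08 ± 0.33, adjusted p = 0.176). For +/1013 against WT it was 0.93 ± 0.30 (adjusted p = 0.2). DESeq2 called both, at 1.03 (adjusted p = 0.0126) and 0.86 (adjusted p = 0.0247). edgeR called 0 of 10 members in each of the comparisons 1013/1013 with WT, +/1013 with WT and 1013/1013 with +/1013, beside 0%, 0.0736% and 0% of 17659 genes. DESeq2 called 1, 1 and 0 members beside 11.4%, 8.14% and 1.31% of genes. An unadjusted p under 0.05 in edgeR was reached by 1, 2 and 0 members, and by 18.3%, 17.3% and 5.53% of genes.

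Ogn was the other member with such a p. It was 1.25 ± 0.36 (log2) in +/1013 against WT SSCs (adjusted p = 0.173), and 0.78 ± 0.39 in 1013/1013 against WT (adjusted p = 0.324). All mutant SSC libraries (807 to 1599 normalized CPM) stood above all WT SSC libraries (269 to 673). Lum differed by 0.52 (−0.14 to 1.18) in 1013/1013 and 0.56 (−0.04 to 1.16) in +/1013 SSCs. Its 1013/1013 libraries did not overlap those of WT, and its +/1013 libraries did. Altogether, 3 of 10 members did not overlap between 1013/1013 and WT SSCs and 2 of 10 between +/1013 and WT SSCs. Over all genes tested, 40.7% and 31.2% did not overlap. Between 1013/1013 and +/1013 SSCs, 1 of 10 members did not overlap, beside 15.9% of all genes. That member was Ogn, with lower values in 1013/1013 libraries (log2 −0.47 ± 0.40, adjusted p = 0.854).

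The remaining members spanned 0 with wide intervals. Against WT, Bgn differed by 0.18 in 1013/1013 and 0.34 in +/1013 SSCs, Aspn by 0.32 and 0.74, Podn by 0.49 and 0.50, and Omd by 0.10 and 0.67. Fmod differed by −0.47 and −0.48, Prelp by −0.71 and −0.59, and Kera by −0.60 and 0.24. For Kera in 1013/1013 against WT SSCs the interval was −2.56 to 1.35. Between 1013/1013 and +/1013 SSCs, Podn, Fmod and Lum differed by −0.00, 0.01 and −0.04, and the widest difference was −0.84 for Kera (−2.82 to 1.13). The median over all genes was −0.23 for 1013/1013 and −0.11 for +/1013 against WT, and over the 10 members 0.25 and 0.53.

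The 2 libraries of 1013/1013 SSCs were unlike each other in several members. Library 1, which had the fewest genes with a count of all 17 (15748), was the lowest of the 8 SSC libraries in Kera, Prelp, Fmod, Omd and Bgn. It had the fewest chondrocyte marker counts (3349 normalized CPM) and the most fibroblast marker counts (4157). Library 2 had the most chondrocyte marker counts of the SSC libraries (21213). Against WT, Prelp differed by −2.14 (adjusted p = 0.0311) and Kera by −3.49 (adjusted p = 0.00728) where library 1 alone stood for the genotype, and Kera by 0.29 where library 2 did. A lone library is assumed in such a fit to vary like the other groups. Dcn, in contrast, was at 41678 and 44986 normalized CPM in these 2 libraries.

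Fibroblast marker counts were higher in mutant than in WT SSC libraries, as Dcn and Ogn were. The 6 markers (Cd34, Dpt, Pi16, Clec3b, Thy1 and Dpp4) summed to 948 to 1437 normalized CPM in WT SSCs, 2059 to 3097 in +/1013 and 1752 to 4157 in 1013/1013 SSCs. Dpt, which encodes the decorin-binding protein dermatopontin, was at 145 to 209 normalized CPM in WT SSCs and 369 to 888 in mutant SSCs. It differed by 1.86 ± 0.38 (log2, adjusted p = 0.107) in 1013/1013 and 1.57 ± 0.36 (adjusted p = 0.132) in +/1013 SSCs against WT. Ly6a, the gated antigen, was at 386 to 599 in WT SSCs and 838 to 1450 in mutant SSCs (log2 1.33 ± 0.34 and 1.20 ± 0.31, adjusted p = 0.14 and 0.158). Of the 3 SSC sort markers (Ly6a, Pdgfra and Itgav), 2 were higher and 1 lower in each mutant genotype than in WT. Their medians were 0.08 for 1013/1013 and 0.13 for +/1013 (log2). DESeq2 called 1 higher in 1013/1013 SSCs, and 1 higher and 1 lower in +/1013 SSCs. Among mutant SSCs the order was not shared. +/1013 SSC library 2 had the lowest fibroblast sum of its genotype (2059) and the highest Dcn (47894) and Ogn (1599), and 1013/1013 library 1 had the higher sum (4157 against 1752) and the lower Dcn (41678 against 44986).

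Sums of 2 other marker lists also differed between WT and mutant SSC libraries, the second without overlap only for +/1013. The osteoblast lineage markers summed to 9698 to 13580 normalized CPM in WT SSCs and 3935 to 8081 in mutant SSCs. The leukocyte and erythroid markers summed to 354 to 2831 in WT, 116 to 246 in +/1013 and 696 to 901 in 1013/1013 SSCs. In +/1013 against WT SSCs all 10 of them had lower values, with a median of −4.45 (log2), edgeR called 0 with 6 at an unadjusted p under 0.05, and DESeq2 called 6. In 1013/1013 against WT SSCs 9 of 10 were lower, with a median of −0.96, and neither tool called any, with 0 at an unadjusted p under 0.05 in edgeR. Whether these counts and the number of genes detected contributed to the Dcn and Ogn values was not tested.

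**Figure D4:**
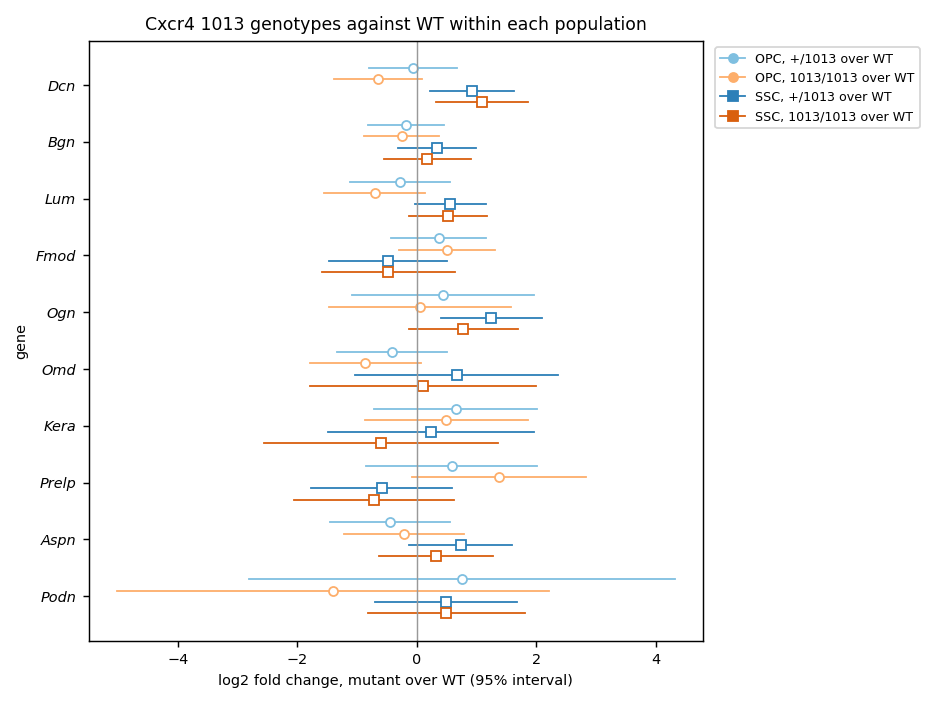
Difference of each mutant genotype from WT (log2 fold change) in OPCs and in SSCs for the 10 genes, with 95% intervals from the edgeR fits. All symbols are open because no difference passed the test. The intervals of Dcn in SSCs lie above 0 for both mutants (0.32 to 1.85 and 0.23 to 1.63), as does that of Ogn for +/1013 (0.41 to 2.09).

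Whether the genotype difference itself differed between SSCs and OPCs was tested as an interaction in the fit of all 17 libraries. For 1013/1013 against WT, edgeR called 0 of 10 members and 0.153% of genes, and DESeq2 called 1 member, Dcn, and 7.48% of genes. For +/1013 against WT, edgeR called 0 of 10 and 0.084% and DESeq2 0 of 10 and 2.86%. Dcn had the smallest p of the members in both. Its difference was 1.72 ± 0.44 greater in SSCs than in OPCs for 1013/1013 (log2, adjusted p = 0.15) and 1.00 ± 0.42 for +/1013 (adjusted p = 0.432). DESeq2 gave 1.73 for 1013/1013 (adjusted p = 0.00323).

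Lum and Prelp also had an unadjusted p under 0.05 for 1013/1013, in opposite directions. The Lum difference was 1.21 ± 0.47 greater in SSCs than in OPCs (adjusted p = 0.275), and the value for Prelp was −2.08 ± 0.94 (adjusted p = 0.323). In all, 3 members had such a p for 1013/1013 and 1 for +/1013, against 15.0% and 10.6% of genes. The median over all genes was −0.39 and −0.14, and over the members 0.62 and 0.68. These interactions use the same libraries as the differences within SSCs and OPCs given above.

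**Figure D5:**
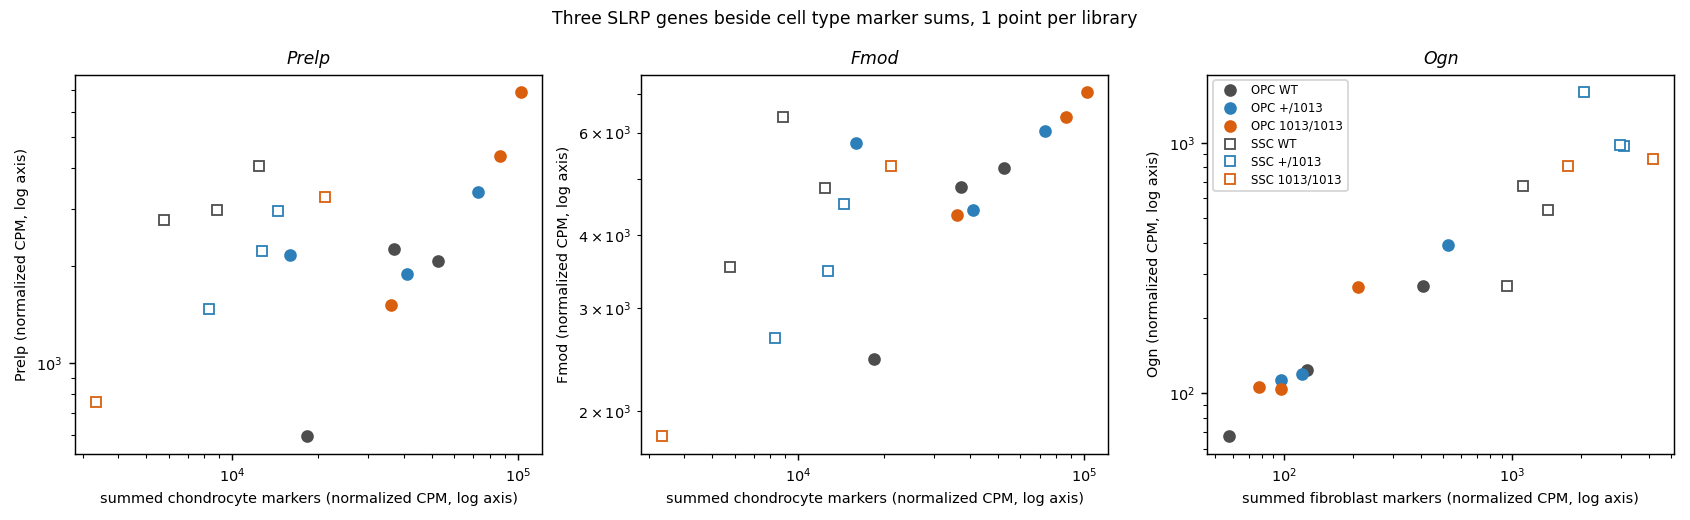
Prelp and Fmod plotted against the summed chondrocyte markers and Ogn against the summed fibroblast markers in the 17 libraries (normalized CPM, log axes), with symbols by population and genotype. Prelp is highest where the chondrocyte sum is highest, at 102684, and the highest OPC values of Ogn in each genotype are those with the highest fibroblast sums.

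Other family members and the machinery around SLRPs were followed through lists of genes. The counts of list genes called between SSCs and OPCs stand beside 11.4%, 12.5% and 13.1% of all genes called by edgeR in WT, +/1013 and 1013/1013 mice. Of 8 further family members (Epyc, Optc, Ecm2, Chad, Chadl, Nyx, Tsku and Podnl1), Ecm2 was higher in SSCs than OPCs in every genotype, by 1.91 ± 0.37 (log2, adjusted p = 0.00472) in WT. Ecm2, a matrix protein with leucine-rich repeats, was at 48.5 to 93.7 normalized CPM in OPCs and 224 to 860 in SSCs, without overlap. Chadl, a chondroadherin-like protein of cartilage, was lower in SSCs in every genotype, by −3.21 ± 0.70 (adjusted p = 0.00959) in WT. Podnl1 was lower in +/1013 SSCs (log2 −3.16 ± 0.93, adjusted p = 0.0398) and Epyc in 1013/1013 SSCs (log2 −3.19 ± 0.82, adjusted p = 0.0217). The list's median was −0.72 in WT, against 0.17 over all genes.

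Enzymes that build the chains carried by SLRPs were lower in SSCs or not called, with few exceptions. Of 6 enzymes of the glycosaminoglycan linkage region, 0 were higher and 3, 2 and 4 lower in SSCs of WT, +/1013 and 1013/1013 mice, with medians of −0.95, −1.10 and −1.33. B4galt7, which adds the first galactose of the linker, fell in all 3 and differed by −1.49 ± 0.29 in WT (adjusted p = 0.00482). Fam20b, which phosphorylates the linker xylose, did so too (−1.10 ± 0.33, adjusted p = 0.0467). The third in WT was B3gat3, which completes the linker with glucuronic acid (−0.80 ± 0.24, adjusted p = 0.0494). B3galt6 (−3.09 ± 0.90) and Xylt1 (−2.61 ± 0.76) were called in 1013/1013 mice.

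Of 16 chondroitin and dermatan sulfate enzymes, 1 was higher and 4 lower in WT SSCs, 1 and 7 in +/1013, and 1 and 7 in 1013/1013 SSCs. The sulfotransferase genes Chst13 (−5.83 ± 1.63, adjusted p = 0.0341) and Chst11 (−2.77 ± 0.67, adjusted p = 0.0162) and the chain polymerase Chsy1 (−1.71 ± 0.37, adjusted p = 0.00807) had the widest WT differences. The 1 that was higher in WT was Dse, named after its values were seen. It encodes an epimerase that turns chondroitin into dermatan sulfate and differed by 1.62 ± 0.33 (adjusted p = 0.0062). The higher one was Csgalnact2 in +/1013 (1.17 ± 0.32) and Chst7 in 1013/1013 mice (2.66 ± 0.63).

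Of 13 genes of keratan sulfate synthesis and sulfation, 3 were lower in WT SSCs, 5 lower and 1 higher in +/1013, and 2 lower in 1013/1013 SSCs. They included Papss2 (−3.01 ± 0.61, adjusted p = 0.0062 in WT) and Papss1 (−1.24 ± 0.19, adjusted p = 0.001), which make the sulfate donor PAPS, and Slc35b2, which carries it into the Golgi (−1.92 ± 0.32, adjusted p = 0.00198). Papss2 and Slc35b2 were called in all 3 genotypes. Papss2 was at 270 to 1795 normalized CPM in OPCs and 33.5 to 112 in SSCs. In OPCs it was lowest in WT library 3 and highest in 1013/1013 library 1, the libraries where Prelp was lowest and highest. The chondrocyte markers summed to 18364 and 102684 normalized CPM in these 2 libraries. Over the OPC libraries, the sum of the 13 genes rose in the same order as the chondrocyte sum, from 951 to 2645 normalized CPM. In the SSC libraries the orders differed. The part of chondrocyte transcripts in the values of this and the other enzyme lists was not tested.

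Of 11 proteases and their enhancers, Htra1, which cleaves several SLRPs, was higher in SSCs in all 3 genotypes (1.52 ± 0.24, adjusted p = 0.00126 in WT). Bmp1, the procollagen C-proteinase that removes the biglycan propeptide, was lower in all 3 (−1.76 ± 0.31, adjusted p = 0.00284 in WT), as was Bgn. Adamts5, an aggrecanase, was higher in +/1013 (1.75 ± 0.54, adjusted p = 0.0473) and 1013/1013 SSCs (2.97 ± 0.59, adjusted p = 0.00528). The other 8 genes were not called in any genotype. With DESeq2, 27.3%, 36.4% and 27.3% of the list were called in WT, +/1013 and 1013/1013 mice, beside 21.2%, 23.2% and 28.5% of all genes.

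Of 18 receptors and growth factors that SLRPs bind, 1 was higher and 2 lower in WT SSCs, 3 and 2 in +/1013, and 4 and 2 in 1013/1013 SSCs. DESeq2 called 22.2%, 33.3% and 33.3% of this list in the 3 genotypes, beside 21.2%, 23.2% and 28.5% of all genes. The WT share was thus near that of all genes. Lrp1, an endocytic receptor for decorin, was higher in all 3 genotypes (2.23 ± 0.46, adjusted p = 0.00645 in WT). Ccn4, a matricellular protein that binds decorin and biglycan, was lower in all 3 (−4.50 ± 0.41, adjusted p = 1.47e-05), as was Tgfb1 (−1.56 ± 0.32, adjusted p = 0.00675). Tgfb1 was at 76.4 to 171 normalized CPM in OPCs and 14.1 to 48.8 in SSCs.

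Among 13 fibrillar collagens and collagen partners, 2 were higher in SSCs of each genotype and 5, 5 and 6 were lower. Col14a1, whose product interacts with decorin on fibrils, was 6.24 ± 0.44 higher on the log2 scale in WT SSCs (adjusted p = 1.71e-06). Type I collagen was lower, with Col1a1 at −4.80 ± 0.53 (adjusted p = 9.2e-05) and Col1a2 at −4.47 ± 0.42 (adjusted p = 2.24e-05). The called genes thus lay on both sides, and the list's median was −0.33 in WT, −1.0 in +/1013 and −1.33 in 1013/1013 mice.

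In the marker lists, 8, 8 and 6 of 8 osteoblast lineage genes were lower in SSCs of WT, +/1013 and 1013/1013 mice. Of 3 SSC sort markers 2 were higher in each genotype, and 1 was lower in 1013/1013 mice. Of 6 fibroblast markers 4, 5 and 5 were higher, led in WT by Clec3b (7.11 ± 1.25) and Pi16 (5.46 ± 1.35). Of 7 chondrocyte markers 3, 5 and 5 were lower. Of 5 tendon markers 1, 2 and 1 were higher, Fbln2 in each genotype (3.77 ± 0.78 in WT). Of 10 leukocyte and erythroid markers 0 were called in any genotype by edgeR or by DESeq2, and 0 had an unadjusted p under 0.05. Tek was called among endothelial markers in 1013/1013 mice (3.71 ± 0.90) and Acta1 among muscle markers in WT (−4.79 ± 1.43). The part of these differences in the SLRP values was not tested.

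Between genotypes, edgeR called 0 of the 133 list genes that are no SLRP member in any of the 6 comparisons within a population. In OPCs, 5, 4 and 3 of them had an unadjusted p under 0.05 (1013/1013 with WT, +/1013 with WT, 1013/1013 with +/1013), which is 3.82%, 3.05% and 2.29% of those tested beside 3.38%, 2.04% and 3.17% of all genes, and DESeq2 called 0, 1 and 0. In SSCs, 21, 37 and 8 had one, which is 15.9%, 28.0% and 6.06% beside 18.3%, 17.3% and 5.53% of all genes. DESeq2 called 10, 20 and 3 in SSCs, which is 7.81%, 15.5% and 2.33% beside 11.4%, 8.14% and 1.31%. The shares for 1013/1013 against WT SSCs thus lay below those of all genes and the shares for +/1013 against WT above, where 6 of the 20 DESeq2 calls were leukocyte and erythroid markers. Against WT, Xylt1, the first enzyme of chain synthesis, differed by −1.81 ± 0.57 (adjusted p = 0.182) in 1013/1013 and −1.21 ± 0.48 (adjusted p = 0.262) in +/1013 SSCs. Tgfb1 differed by −0.99 ± 0.36 (adjusted p = 0.22) and −1.23 ± 0.32 (adjusted p = 0.158). Adamts5 differed by 1.15 ± 0.35 (adjusted p = 0.174) in 1013/1013 SSCs, and Papss1 by 0.75 ± 0.19 (adjusted p = 0.136). Pcolce2, a procollagen proteinase enhancer, differed by 1.04 ± 0.33 (adjusted p = 0.182) and 0.91 ± 0.30 (adjusted p = 0.202). Col1a1 differed by −2.09 ± 0.53 (adjusted p = 0.136) and −2.41 ± 0.46 (adjusted p = 0.11).

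Among the 10 members, centred on the mean of each population, the closest pairs over 17 libraries were Fmod with Prelp (Pearson r = 0.90), Bgn with Omd (0.89), Dcn with Lum (0.74) and Bgn with Lum (0.69). Neighbours on chromosome 13 were less alike, with 0.49 for Aspn and Ogn, 0.43 for Aspn and Omd, and −0.02 for Ogn and Omd. Among 7112 protein-coding genes whose mean reached 10 CPM in both populations, the gene most like Dcn was Ddrgk1 (0.94), followed by Ctsl (0.93) and Fh1 (0.92). Lum was most like Ctsk (0.91), which encodes the collagen-degrading protease cathepsin K. Fmod was most like Dse (0.90), Ogn like Serping1 (0.92) and C1s1 (0.92), both of the complement system, and Prelp like Edil3 (0.93). Bgn was most like A430005L14Rik (0.92), Omd like Bgn (0.89), Kera like Ptx4 (0.94), Aspn like Tmem11 (0.83) and Podn like Rgmb (0.88). The libraries share depth, RNA input and genotype groups, and these values carry no test.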

How the data were processed

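Sorted pools of OPCs and SSCs were profiled by bulk RNA sequencing in 17 libraries. According to the study's methods and the labels, the authors extracted RNA with a micro column kit, made cDNA with SMART-Seq v4, built Nextera XT libraries, removed reads under 50 bases, aligned to mm10 with STAR and counted reads per gene with HTSeq. The deposited values are these integer counts, without normalization. Versions, annotation release and strand setting are not given in the sources used here. Of the 55335 gene identifiers, 55154 matched GENCODE M21, which gave positions and exon lengths, and HTSeq's special counters stayed out of totals and tests.

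Tests used R 4.3.3 and edgeR 4.0.16 (filterByExpr, TMM, glmQLFit with legacy = TRUE, glmQLFTest), with limma 3.58.1, and DESeq2 1.42.0 as an alternative, after tests on simulated data. SSCs and OPCs were compared in one fit of all 17 libraries and genotypes in one fit per population, without covariates. Calls required an adjusted p under 0.05 (Benjamini-Hochberg) together with a change of 1.5-fold or more. The SE is the absolute log2 fold change over the square root of F, and the 95% interval uses the t distribution of the fit. Replicates are pools of 3 mice each, and whether the same mice gave both populations is not stated in the sources used here. PCR copies were not told apart, so depth covers counting error only.

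The members and lists were chosen with earlier results of these data known. All 10 members are named in every comparison. Of each list, up to 3 called genes with the largest change are named, or where none is called up to 2 whose mean reached 10 CPM and whose groups did not overlap. The alternatives were DESeq2, other scalings and filters, other sets of libraries, a replicate block and each library left out. Those without a normalization factor, without Col1a1 and Col1a2, without 3 leukocyte-rich libraries and without 3 fibroblast-rich OPC libraries were chosen after seeing the data.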

Additional observations from a re-analysis of the deposited data

How the results depend on the processing

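Dcn and Aspn (higher in SSCs) and Bgn (lower) kept their direction in all 3 genotypes under every alternative run, and Dcn and Aspn in +/1013 mice also kept their call. In genotype comparisons edgeR called 0 members under every alternative except those with 1013/1013 SSC library 1 alone. The cause of a change was not tested unless stated. With 2 or 3 pools a group, a difference that was not called does not show equal levels. The intervals given are for single genes and are not adjusted for the number of genes tested.

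The genes called by edgeR between SSCs and OPCs numbered 2308 in WT, 2521 in +/1013 and 2642 in 1013/1013 mice, and DESeq2 called 4092, 4496 and 5018, with 6 members in WT. In OPCs, DESeq2 called 65, 68 and 77 genes (1013/1013 with WT, +/1013 with WT, 1013/1013 with +/1013) against 1, 0 and 0. In SSCs it called 1888, 1396 and 239 against 0, 13 and 0, with 1 member in each of the first 2, and for the interactions 1276 and 504 against 31 and 17, with 1 member for 1013/1013. With library totals and no factor, 4099 genes and 5 members were called in WT, 0 in 1013/1013 against WT OPCs, 0 in +/1013 against WT SSCs, and 6 and 0 in the interactions. Without the 3 leukocyte-rich libraries the same counts were 1020 genes in WT, 0, 0, 0 and 0, and 2 members in 1013/1013 mice. With at least 10 counts in every library, 5 members were called in WT, and 54, 72 and 59 genes in 1013/1013 against WT SSCs, +/1013 against WT SSCs and the 1013/1013 interaction. With only the groups compared, 511 genes and 1 member were called in 1013/1013 mice, 0 genes in 1013/1013 against WT OPCs, 1 in +/1013 against WT SSCs, and 0 and 0 in the interactions. With all 17 libraries in one fit, the genotype counts were 2, 1 and 1 in OPCs and 212, 145 and 2 in SSCs. Without the 3 fibroblast-rich OPC libraries, they were 0 in 1013/1013 against WT OPCs and 0 and 0 in the interactions. The count in +/1013 against WT SSCs was 0 with DESeq2's size factors, 33 with upper-quartile scaling and 0 without a filter, and the +/1013 interaction had 0 in each of these and with legacy = FALSE. The 1013/1013 interaction had 5 without a filter.

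Nothing in the labels says that a replicate number pairs libraries. Deviations of same-numbered libraries correlated from −0.354 to 0.380 in OPCs (median 0.119, against −0.081 for other pairs). They correlated from −0.142 to 0.123 in SSCs (−0.049 against 0.012) and −0.356 to 0.384 across them (−0.023 against 0.019). With 2 or 3 libraries a group, such values cannot show whether a number marks shared mice or a sort day. The 3 pairs of OPC libraries numbered 1 were at 0.153, 0.346 and 0.380. The replicate block changed 1 call of a member, that of Ogn between SSCs and OPCs of WT mice (1.83, adjusted p = 0.0203, called). With the replicate block, 0 genes were called in 1013/1013 against WT OPCs, 0 in +/1013 against WT SSCs, and 19 and 0 in the interactions.

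Leaving out 1 library gave 1321 to 2263 genes between SSCs and OPCs in WT (lowest without WT OPC 2), 1469 to 2357 in +/1013 (lowest without OPC 3) with 2 to 5 members, and 1084 to 4036 in 1013/1013 mice with 2 to 7 members. The ends of the last range are 1013/1013 SSC library 2 and library 1 alone. Genotype counts were 0 to 0 in 1013/1013 against WT OPCs and in +/1013 against WT SSCs, 0 to 2931 in 1013/1013 against WT SSCs (0 to 2 members) and 0 to 1812 in 1013/1013 against +/1013 SSCs (0 to 1). They were 0 to 1960 (0 to 1) in the 1013/1013 interaction and 0 to 13 in the +/1013 interaction. The upper ends, apart from the last, are 1013/1013 SSC library 1 alone.

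Values that turned sign are given here in log2, and none of them was called. Without the leukocyte-rich libraries these were, for 1013/1013 against WT OPCs, Ogn −0.072, Kera −0.04 and Aspn 0.22, for +/1013 against WT OPCs, Dcn 0.26, Lum 0.22 and Omd 0.0052, for 1013/1013 against WT SSCs, Omd −0.22, and for the 1013/1013 interaction, Aspn −0.015. With library totals they were Lum 0.14 (SSC against OPC, WT), Prelp 0.26 (+/1013), Dcn 0.082 (+/1013 against WT OPCs), Bgn −0.11 and Omd −0.20 (1013/1013 against WT SSCs), Kera −0.021 (+/1013 against WT SSCs), Fmod −0.038 (1013/1013 against +/1013 SSCs) and Bgn −0.0078 (1013/1013 interaction). Without the fibroblast-rich libraries they were Podn −0.41 (+/1013 against WT OPCs), Kera 0.62 (1013/1013 against +/1013 OPCs) and Podn 0.92 (+/1013 interaction). With the replicate block they were Kera 0.072 (1013/1013 against +/1013 OPCs), Omd −0.63 (1013/1013 against WT SSCs), Fmod −0.22 (1013/1013 against +/1013 SSCs) and Podn 0.43 (+/1013 interaction). In 1013/1013 against +/1013 SSCs, Fmod was −0.0053 with only the groups compared and −0.0098 with all 17 libraries, and Podn 0.011 with DESeq2, 0.020 with its size factors and 0.0039 with upper-quartile scaling.

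Leaving out 1 library turned further values. Between SSCs and OPCs of WT mice, the ranges were Fmod −0.023 to 0.45. Between SSCs and OPCs of +/1013 mice, the ranges were Kera −0.28 to 0.93 and Prelp −0.43 to 0.13. Between SSCs and OPCs of 1013/1013 mice, the ranges were Kera −3.41 to 0.32. For 1013/1013 against WT OPCs, the ranges were Ogn −0.52 to 0.71 and Aspn −0.45 to 0.10. For +/1013 against WT OPCs, the ranges were Dcn −0.26 to 0.26, Lum −0.48 to 0.21, Ogn −0.39 to 1.13, Omd −0.72 to 0.0047, Kera −0.18 to 1.10 and Podn −0.81 to 1.34. For 1013/1013 against +/1013 OPCs, the ranges were Bgn −0.22 to 0.077, Fmod −0.0086 to 0.30, Ogn −0.98 to 0.44, Kera −0.54 to 0.67 and Aspn −0.070 to 0.66. For 1013/1013 against WT SSCs, the ranges were Bgn −0.38 to 0.54, Fmod −1.46 to 0.084, Omd −1.43 to 0.81, Kera −3.49 to 0.29, Aspn −0.16 to 0.65 and Podn −0.28 to 0.93. For +/1013 against WT SSCs, the ranges were Omd −0.28 to 1.02 and Kera −0.14 to 0.41. For 1013/1013 against +/1013 SSCs, the ranges were Bgn −0.71 to 0.20, Lum −0.19 to 0.085, Fmod −0.97 to 0.57, Omd −2.09 to 0.37, Kera −3.72 to 0.049, Prelp −1.54 to 0.56, Aspn −0.89 to 0.0043 and Podn −0.78 to 0.45. For the 1013/1013 interaction, the ranges were Bgn −0.081 to 0.80 and Omd −0.52 to 1.67. For the +/1013 interaction, the ranges were Kera −0.84 to 0.41 and Podn −0.85 to 1.30. Of these, the lower ends of Kera between SSCs and OPCs of 1013/1013 mice and in both SSC comparisons of 1013/1013 libraries were called.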
